A study of Mus musculus with 6 samples.

Results

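Kinesin motor genes were examined in germinal center (GC) B cells of the mouse spleen, with the genes for cell division set against the genes for transport in neurons. Members were all protein-coding genes of the GENCODE basic annotation for GRCm38 (mm10) whose symbol is Kif followed by a digit, which gave 39 of 21864 protein-coding genes. They were placed by known function in 5 classes. The 11 mitotic members were Kif2c, Kif4, Kif11, Kif14, Kif15, Kif18a, Kif18b, Kif20a, Kif20b, Kif22 and Kif23. The 6 neuronal members were Kif1a, Kif3c, Kif5a, Kif5c, Kif17 and Kif21b. A further 9 were general transport kinesins, 6 were ciliary and centriolar, and 7 fell in none of these. The last class includes Kif1bp, which carries the prefix but encodes a protein that binds kinesins and is no motor.

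The data were 6 peak lists from Mint-ChIP, a barcoded chromatin immunoprecipitation for small cell numbers. Of these, 3 libraries were made with an antibody against histone H3 trimethylated at lysine 4 (H3K4me3) and 3 with one against the monomethylated form (H3K4me1). All came from WT mice immunized with sheep red blood cells, with spleens collected on day 8, and 50000 sorted cells went into a library. The cells are GC Centrocytes in the labels and GC B cells in the study's methods. In the study the WT mice carry the Cγ1-cre allele, which is switched on in GC B cells, and it was not stated for these libraries whether that allele was present. No treated or mutant group was analysed here, so the only contrasts were between marks and between sets of genes. Nothing states that the 3 libraries of a mark came from separate mice, and their spread may be technical.

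The H3K4me3 lists held 41936 to 46707 peaks and the H3K4me1 lists 11922 to 24136 peaks. The labelled cell type was checked on marker genes. A peak within 5 kb of a transcription start site (TSS) of a coding transcript is called promoter-proximal, and 56.1% of all genes had such an H3K4me3 peak in 3 of 3 libraries. All 5 B cell and all 5 GC B cell markers had promoter-proximal H3K4me3 in 3 of 3 libraries, with a median of 82.1% and 52.1% of the promoter window under peaks. Of 4 T cell markers only Cd3d did (4.86%, 14.8% and 8.39% of its window), and Cd3e, Cd4 and Cd8a had no peak of either mark. Of the other lists, 2 of 4 myeloid, both plasma cell and 2 of 3 erythroid markers had H3K4me3 in 3 libraries, and no gene of these 3 lists had H3K4me1 in 3.

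Kinesins are ATP-driven motors that walk along microtubules or take them apart. Mitotic kinesins build the spindle, move chromosomes and help cells to divide, and their genes are switched on late in the cell cycle. Neuronal kinesins carry vesicles, receptors and organelles down axons and dendrites. GC B cells pass through rounds of fast division. H3K4me3 marks the starts of active or poised genes, while H3K4me1 is typical of enhancers and of the flanks of active promoters.

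Promoter sequences differ between the mitotic and neuronal classes in features known for cell cycle genes. A CHR element (letters TTTGAA or TTCGAA, searched on both strands) and a CCAAT box (letters CCAAT, both strands) are the usual pair in genes expressed in mitosis. RefSeq promoters (GRCm38.p6, 250 bases before to 50 after a start) matched 31 of 39 members. The 150 bases before the start are shown 5′ to 3′ for 4 mitotic members whose RefSeq start lay under H3K4me3 in 3 of 3 libraries, and for 3 neuronal members, whose start lay under H3K4me3 in 0 (Kif1a), 2 (Kif5c) and 3 (Kif3c) libraries. Capitals mark CHR and CCAAT letters on either strand. Kif11 is at chr19:37376232-37376381 (+ strand), Kif22 at chr7:127042421-127042570 (− strand), Kif18b at chr11:102925125-102925274 (− strand), Kif15 at chr9:122950931-122951080 (+ strand), Kif1a at chr1:93101875-93102024 (− strand), Kif5c at chr2:49619136-49619285 (+ strand) and Kif3c at chr12:3364982-3365131 (+ strand).
Kif11: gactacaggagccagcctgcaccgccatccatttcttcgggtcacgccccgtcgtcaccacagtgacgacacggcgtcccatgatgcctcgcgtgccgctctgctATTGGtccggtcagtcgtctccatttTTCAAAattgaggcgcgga
Kif22: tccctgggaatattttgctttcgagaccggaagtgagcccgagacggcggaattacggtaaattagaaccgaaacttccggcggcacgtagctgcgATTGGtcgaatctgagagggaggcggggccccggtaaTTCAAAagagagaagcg
Kif18b: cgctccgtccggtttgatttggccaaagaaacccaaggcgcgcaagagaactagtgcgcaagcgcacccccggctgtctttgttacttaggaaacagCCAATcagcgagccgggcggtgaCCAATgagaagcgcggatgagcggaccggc
Kif15: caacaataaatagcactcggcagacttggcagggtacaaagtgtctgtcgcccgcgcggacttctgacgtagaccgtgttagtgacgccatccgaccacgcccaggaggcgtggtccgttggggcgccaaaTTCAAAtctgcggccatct
Kif1a: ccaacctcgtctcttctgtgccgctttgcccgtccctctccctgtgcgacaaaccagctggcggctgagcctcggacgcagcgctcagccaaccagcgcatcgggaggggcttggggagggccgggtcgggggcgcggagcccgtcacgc
Kif5c: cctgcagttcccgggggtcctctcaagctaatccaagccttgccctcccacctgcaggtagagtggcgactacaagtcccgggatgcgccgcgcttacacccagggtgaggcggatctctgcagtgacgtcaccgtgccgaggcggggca
Kif3c: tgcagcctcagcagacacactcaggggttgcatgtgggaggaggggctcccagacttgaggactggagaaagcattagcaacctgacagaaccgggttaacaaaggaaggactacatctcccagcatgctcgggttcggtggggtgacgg

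Of the 10 mitotic promoters matched, 9 held a CHR, all but Kif18a, and 6 held a CCAAT box. None of the 4 neuronal promoters matched (Kif1a, Kif3c, Kif5c and Kif17) held either. Among all 16515 RefSeq promoters 17.3% held a CHR and 38.8% a CCAAT box. Outside both classes a CCAAT box was in 3 of 7 general transport, 3 of 5 ciliary and centriolar and 2 of 5 other promoters. A CHR was in 0, 2 and 1 of these. The CCAAT box was thus not particular to mitotic members. In 7 of the 10 mitotic promoters a CHR began within 25 bases of the start, compared with 2.40% of all promoters. The same held for 0 of 4 neuronal, 0 of 7 general transport, 0 of 5 ciliary and centriolar and 1 of 5 other promoters. In the ciliary and centriolar Kif24 a CHR began 26 bases before the start, just outside that limit. The CHR began 19 bases before the start in Kif11 and in Kif15 and 17 before it in Kif22, as the sequences show. In Kif18b it began 3 bases after the start, beyond the bases shown, and in Kif23 2 bases after it. CpG content also differed: the median ratio of observed to expected CpG was 0.909 over mitotic, 0.663 over neuronal and 0.599 over all promoters. It was 0.910 over general transport, 0.756 over ciliary and centriolar and 0.733 over other kinesins. The mitotic ratio was thus not particular to that class. The RefSeq starts of Kif14 and Kif2c lay under no H3K4me3 peak, so their windows (CpG ratios of 0.226 and 0.118) are not the stretch that carried the mark. A match of letters is a description and not evidence of a bound factor.

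All 11 mitotic kinesin genes had promoter-proximal H3K4me3 in 3 of 3 libraries, and 4 of 6 neuronal genes did (Kif3c, Kif5a, Kif17 and Kif21b). Of all 21864 genes 56.1% did. Over the 39 kinesins the count was 32, with 2 in 1 or 2 libraries (Kif5c in 2, Kif6 in 1) and 5 in none. These 5 were Kif1a, Kif21a, Kif12, Kif28 and Kif2b. Among them Kif1a, a neuronal carrier of synaptic vesicle precursors, was the only member of either contrasted class. The class shares were 8 of 9 for general transport, 5 of 6 for ciliary and centriolar and 4 of 7 for the rest. By library, the share of mitotic genes marked was 100%, 100% and 100%, and the share of neuronal genes 83.3%, 83.3% and 66.7%. The mitotic share was higher in each library, by 22.2 ± 9.62 percentage points (mean ± SD, n = 3), and with 6 genes in the smaller class 1 gene moves its share by 16.7 points.

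**Figure D1:**
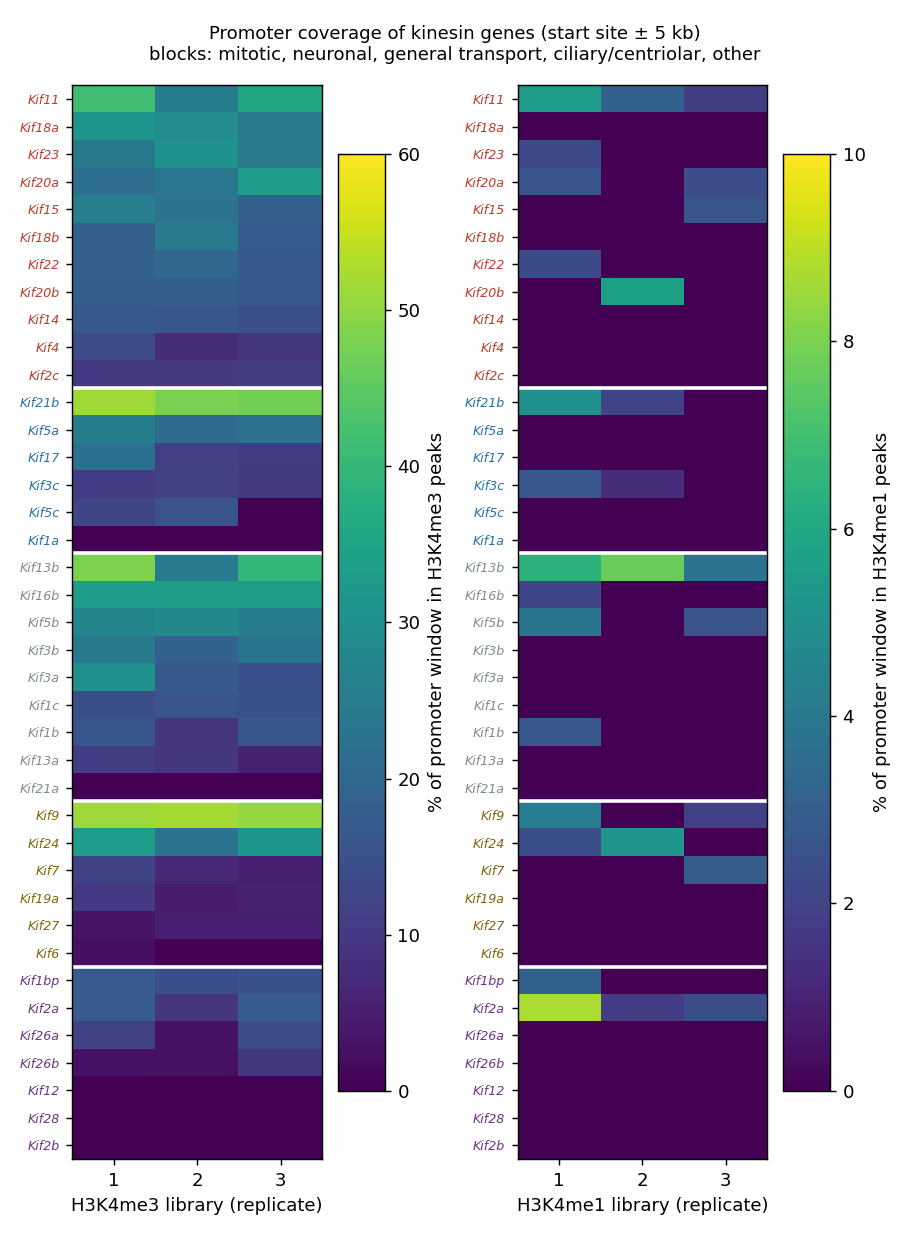
Percentage of the promoter window (every coding TSS ± 5 kb) covered by H3K4me3 peaks (left, scale to 60%) and H3K4me1 peaks (right, scale to 10%), with a row for each kinesin gene and a column for each library. White lines separate the 5 classes. All 11 mitotic rows are above 0 in the 3 H3K4me3 columns, Kif1a is at 0 in all 6 columns, and Kif21b is the highest neuronal row at 47.3% to 51.4%.

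Among mitotic genes Kif11 (chr19:37376403-37421859), the plus-end motor that pushes the spindle poles apart, had the highest mean coverage, with 41.5%, 25.3% and 36.0% of its promoter window under H3K4me3 peaks in replicates 1, 2 and 3. A single peak over its TSS, 4149, 2526 and 3407 bp wide, accounted for all or nearly all of that. Kif15, a spindle motor that acts beside Kif11, had 25.7%, 22.9% and 18.3%. Both genes were marked over the TSS in every library. The Kif15 peak over the TSS also covered a TSS of its coding neighbour 1110059G10Rik each time.

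Kif2c, which takes microtubules apart at centromeres, was covered to 10.2%, 10.05% and 10.6%, the lowest mean of the mitotic class, over a window that is longer because a second coding TSS lies apart from the first. Kif18a, which damps chromosome movement at the metaphase plate, had 31.5%, 28.8% and 24.9%. Of its peaks, 1 per library lay about 1.8 kb upstream over a TSS of Mettl15, the gene on the other side. Kif18b, a motor of astral microtubules, had 18.4%, 24.5% and 17.5%. The chromosome arm motors stood apart from each other: Kif22 had 18.3%, 19.7% and 16.4%, and Kif4 had 13.8%, 7.73% and 9.57%.

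Kif4 had the lowest enrichment of the mitotic genes. Its peak was 1376, 773 and 957 bp wide with a fold enrichment over local background of 4.24, 3.32 and 3.63, and in replicate 2 it lay 473 bp downstream of the TSS. Only 1.77% of genes with a peak in 3 libraries had a lower mean enrichment. The TSS of Pdzd11, on the X chromosome beside it, lies within 5 kb.

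Genes of the central spindle and of cytokinesis were marked in all libraries. Kif23, whose product bundles the central spindle, had 24.3%, 30.8% and 24.4% of its window covered. Kif20a, which brings Aurora B to the midzone, had 21.6%, 23.6% and 32.8% and has a TSS of Brd8 within 5 kb. Kif20b had 18.3%, 18.2% and 16.5%, the tightest of the 3 genes. Kif14, a motor of the midbody, had 16.7%, 15.8% and 14.7%, but its peaks covered no TSS of a coding transcript. Measured from the nearest one, their closest edges lay at −531, −599 and −645 bp, on the upstream side. In the full annotation a Kif14 transcript with a retained intron starts inside these peaks in 3 of 3 libraries.

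Neuronal genes ranged from the widest kinesin domain to none. Kif21b (ENSMUSG00000041642.18), a motor of dendrites that is also known in lymphocytes, had 51.4%, 47.9% and 47.3% of its window covered. A peak over its TSS was 3035, 1761 and 2875 bp wide. Its widest peak was another one, 3631, 4797 and 6272 bp wide, which began 3367, 2207 and 3359 bp downstream in an intron. The mean width of the widest peak was 4900 bp, above 95.6% of genes with a peak in 3 libraries, whose median was 1902 bp.

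Kif5a and Kif5c encode neuronal heavy chains of conventional kinesin. Kif5a had 25.2%, 21.2% and 22.7% of its window covered, by 2 peaks per library. The wider, 1732, 1634 and 1867 bp, lay about 2.5 kb upstream over a TSS of Dctn2, and the peak over the Kif5a TSS was 857, 540 and 463 bp wide. Kif5c had 12.6%, 15.2% and 0%, so it was marked at its TSS in replicates 1 and 2 and in replicate 3 not at all. Those peaks had a fold enrichment of 3.94 and 3.96, and of the kinesins marked in 3 libraries only Kif4 had a lower mean.

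Kif3c, an accessory motor that pairs with Kif3a, had 10.6%, 11.6% and 10.2%, from a peak over the TSS and another more than 4 kb upstream. Kif17, which carries glutamate receptors in dendrites, had 21.9%, 11.5% and 10.6%, with a peak over the TSS each time. Kif1a (chr1:93015464-93101951) had 0% in all 6 libraries of both marks. Thus 4 of 6 neuronal genes and 8 of 11 mitotic genes had H3K4me3 over a coding TSS in 3 of 3 libraries, against 38.4% of all genes. The 3 mitotic exceptions were Kif14, Kif18a and Kif4, the last 2 marked over the TSS in 2 libraries each.

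Mean coverage was close between the classes in the window of 5 kb and not in a window of 1 kb, where the mitotic mean was higher by 34.8 points. In the 5 kb window, over mitotic genes it was 21.8%, 20.7% and 20.2%, and over neuronal genes 20.3%, 17.9% and 15.1%, against 12.5% ± 1.08 over all genes. The mitotic mean was higher within each library, by 3.12 ± 1.76 percentage points (mean ± SD, n = 3), although the ranges of the classes overlapped. Kif21b carried much of the neuronal mean: without it the difference was 9.34 points. With 1 TSS per gene (−0.469) or with peaks near another coding gene's TSS left out (−0.960) the neuronal mean was the higher. With the latter peaks left out, 7 of 11 mitotic and 3 of 6 neuronal genes remained marked in 3 libraries, against 40.1% of all genes, since Kif4, Kif15, Kif18a and Kif20a have a coding neighbour that close and so does Kif5a. The 1 TSS per gene was the outer 5′ end of the annotated gene. With it mean coverage went from 14.6% to 27.6% in Kif17, where that end lies under a peak over a TSS of Sh2d5. It went from 10.8% to 21.6% in Kif3c and from 10.3% to 14.3% in the mitotic Kif2c.

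The classes stood further apart in counts of strong peaks than in counts of all peaks. When each H3K4me3 list was limited to its 10000 peaks with the highest −log10 q, 8 of 11 mitotic genes still had a promoter-proximal peak in 3 of 3 libraries, compared with 1 of 6 neuronal genes, Kif21b, and 23.8% of all genes. The mitotic genes lost were Kif2c and Kif23, each kept in 2 libraries, and Kif4, kept in none. With a −log10 q of at least 5 the counts were 10 of 11 and 3 of 6, against 34.9% of all genes. General transport genes had 0 of 9 under both limits. Ciliary and centriolar genes had 2 of 6 with the 10000 best peaks and 3 of 6 at the stricter q, and other genes 1 of 7 under both. A low count was thus not particular to the neuronal class. The highest fold enrichment of a promoter-proximal peak, averaged over libraries, lay above that of the median gene (6.40) in 7 of 11 mitotic genes and in 1 of the 4 neuronal genes with a peak in 3 libraries.

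Kif15 was the strongest mitotic gene, with 11.5, 8.48 and 10.2-fold, and Kif20b followed with 9.98, 10.2 and 9.33-fold. The Kif15 peak also covered a TSS of 1110059G10Rik in every library, so its enrichment cannot be assigned to Kif15 alone. Kif21b, the strongest neuronal gene, had 7.12, 7.78 and 6.66-fold, below every library of Kif15 and of Kif20b. Kif2a, a depolymerase outside both classes, had the highest mean of all kinesins, and its libraries spread most, at 10.3, 18.3 and 7.01-fold. In replicate 2, which gave 18.3-fold, no Kif2a peak covered a coding TSS and the widest had 4.99-fold. None of the 8 general transport genes with a peak in 3 libraries lay above the median gene. Of such ciliary and centriolar genes 3 of 5 lay above it, a share near the mitotic one, and of other genes 1 of 4. These enrichments are the averages that a broad caller writes for a whole peak, so they are compared within H3K4me3 only.

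**Figure D2:**
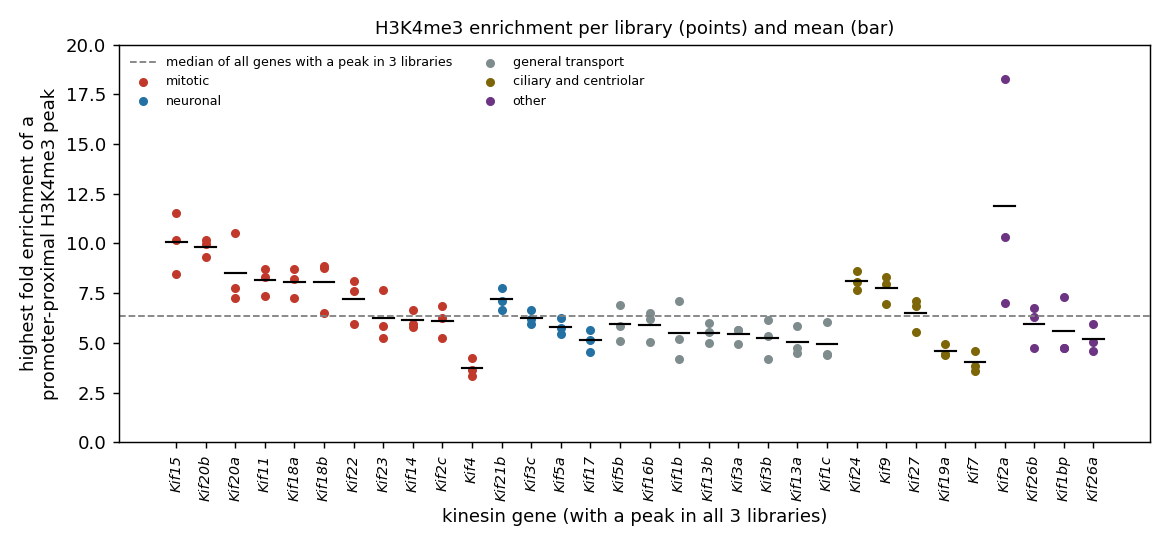
Highest fold enrichment of a promoter-proximal H3K4me3 peak in each of 3 libraries (points) with the mean (black bar), for the 32 kinesin genes with such a peak in all 3, colored by class. The dashed line is the mean over libraries of the median of all genes with a peak in 3 libraries (6.34). Of mitotic genes 7 have means above the line, and Kif4 has the lowest mean of all kinesins shown.

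The mark also extended differently around start sites. On average 80.3% ± 10.5 of mitotic and 72.2% ± 9.62 of neuronal start sites lay under H3K4me3 50 bp downstream (SD, n = 3 libraries). At 950 bp upstream the values were 50.5% ± 13.7 and 0%. A peak at that distance upstream of a TSS was present in 3 of 3 libraries for 4 of 11 mitotic genes (Kif11, Kif14, Kif20a and Kif23) and in 1 or 2 libraries for 4 more. It was present for 0 of 6 neuronal genes in any library. In 3 libraries it was present for 3 of 9 general transport, 2 of 6 ciliary and centriolar and 0 of 7 other genes. A peak there was thus not particular to the mitotic class. Of all genes, 16.3% had one in 3 libraries. Of those 4 mitotic genes only Kif20a has a coding neighbour within 5 kb, and the peaks of Kif14 covered no coding TSS. Farther out the neuronal class was the higher, with 33.3% against 7.58% at −3150 bp and 16.7% against 0% at −4950 bp. At both 3450 and 4950 bp downstream it was 16.7% against 0%. With 6 neuronal genes, 1 gene is 16.7 points. The downstream values were those of the intron peak of Kif21b. The value at −3150 bp included the Kif5a peak over a TSS of Dctn2. The 950 bp distance was chosen after the profile was seen.

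**Figure D3:**
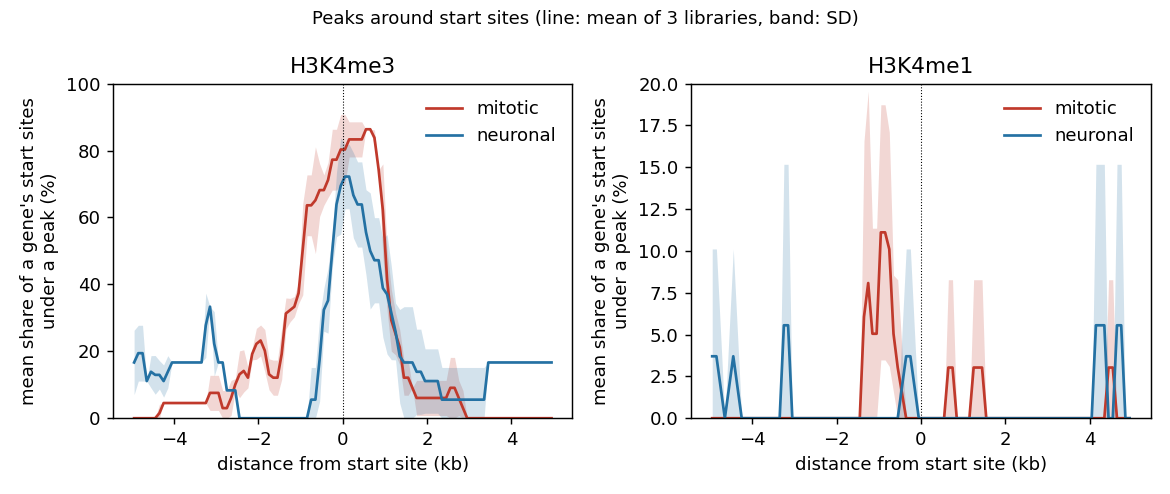
Share of a gene's start sites under a peak, averaged over mitotic (red) and neuronal (blue) genes, by distance from the start site in bins of 100 bp; lines are means of 3 libraries and bands are SDs. Left, H3K4me3, which reaches 86.4% in mitotic genes at 550 bp downstream and 72.2% in neuronal genes at 50 bp. Right, H3K4me1 on a scale to 20%, which is highest in mitotic genes at 11.1%, 850 bp upstream, and 0 over the start itself.

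Outside both classes, the widest H3K4me3 domains were those of Kif9, Kif16b and Kif24. Kif9, a motor of motile cilia, had 1 peak over its TSS that was 3823, 4764 and 5060 bp wide and that also covered a TSS of Klhl18. Kif16b, which moves early endosomes, had a widest peak of 3372 bp on average and Kif24, which restrains cilium formation at the centriole, one of 2910 bp. Kif9 and Kif16b exceeded every mitotic gene, and Kif24 every one but Kif11, whose mean was 3361 bp. Kif21a, a general transport kinesin related to Kif21b, had no promoter-proximal H3K4me3 in any library.

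H3K4me1 peaks at kinesin promoters were few and shallow. Promoter-proximal H3K4me1 in 3 of 3 libraries was found at 3 of 39 genes (Kif11, Kif13b and Kif2a), near the 6.17% of all genes. Of mitotic genes 36.4%, 18.2% and 27.3% had a peak in replicates 1, 2 and 3, and of neuronal genes 33.3%, 33.3% and 0%. The difference of 5.05 ± 21.3 points (n = 3) was smaller than its spread and changed sign between libraries. In all, 39 such peaks were called over 3 libraries, with a median of 6 fragments at the summit (range 4 to 11), so a mark that is absent and a peak too shallow to call cannot be told apart at this depth. Of these, 33 overlapped an H3K4me3 peak, none covered a coding TSS, and 12 overlapped a peak in another H3K4me1 library.

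The 3 genes marked in each library differed in whether the place was the same. Kif13b, which carries membrane proteins, had H3K4me1 in an intron, with summits 4369, 4245 and 4416 bp downstream of the nearest TSS and peaks that overlapped in all 3 libraries. Kif2a had it upstream of an alternative start, inside an intron, with summits at −2385 bp in replicate 1, −1971 bp in replicate 2 and −2186 and −2797 bp in replicate 3. Only the peaks of replicates 1 and 3 overlapped there. Replicate 1 had 3 more promoter-proximal peaks in Kif2a, of which the widest (690 bp, 8.24-fold) began 350 bp downstream of a start. In Kif11 the summits were at −1246 and −940 bp in replicates 1 and 2, where the peaks overlapped, and 4626 bp downstream in replicate 3, so no one place was marked in all. Among neuronal genes only Kif21b and Kif3c had promoter-proximal H3K4me1, each in replicates 1 and 2.

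Coverage by H3K4me3 exceeded that by H3K4me1 in every pair of libraries at 32 of 39 kinesins, 11 of 11 mitotic and 4 of 6 neuronal, against 55.7% of all genes. For each of these the two-sided exact permutation test over 20 assignments gave p = 0.1, the smallest possible with 3 libraries against 3, so none could pass 0.05. The reverse was found at 0 kinesins, and 5 had neither mark in any library. The H3K4me3 lists were called as broad domains and the H3K4me1 lists as narrow peaks, so mark and calling mode cannot be told apart here.

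Inside gene bodies the order of the classes was the opposite. Peaks in a gene but outside its promoter window numbered 3.58, 1.67 and 1.91 per 100 kb of neuronal gene for H3K4me3 and 0.815, 0.815 and 0.611 per 100 kb of mitotic gene. The libraries did not overlap, and all coding genes had 1.44 ± 0.109 (mean ± SD, n = 3). These are sums over 6 and 11 genes, so a few genes set them. For H3K4me1 the values were 1.19, 0.239 and 0.239 in neuronal and 0, 0 and 0.204 in mitotic genes, a single peak in Kif20b for the latter. All coding genes had 1.04, 0.609 and 0.516, so the neuronal rate was above that only in replicate 1.

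Of 14 H3K4me3 regions in neuronal bodies 6 were found in 3 of 3 libraries, and 5 of the 6 were intronic. Kif5c (chr2:49619298-49774778) held 3 of them, 114, 125 and 152 kb downstream of its only coding TSS. Their fold enrichments were 8.45, 5.62 and 6.98 for the first, 5.31, 4.81 and 5.02 for the second and 4.04, 5.03 and 4.54 for the third. All 9 exceeded the 3.94 and 3.96 of the peaks at its start. The full annotation holds further Kif5c starts of transcripts outside the set of coding TSSs used here. One of them, 125 kb from the coding TSS, lay under H3K4me3 in 3 of 3 libraries, in the second region, and one 113 kb away in replicate 1 only, in the first. H3K4me1 peaks overlapped the first in replicate 2 and the third in replicate 1.

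Kif1a, without a promoter peak, held 1 region in an intron, 10.9 kb from its nearest start, with 4.86, 3.02 and 4.16-fold in the 3 libraries (chr1:93071056-93071964). Kif5a held 1 over an exon, 37.2 kb downstream, with 2.95, 3.12 and 3.03-fold. The region of Kif17 covered a TSS of Sh2d5, at the 5′ end of the annotated Kif17 gene. In 3 of 3 libraries it also covered the start of another Kif17 transcript of the full annotation, 11.8 kb from the nearest coding start. Kif3c had no body region in 3 libraries. In Kif21b the body peak of replicate 2 and 2 of the 3 in replicate 1 overlapped the 6272 bp peak of replicate 3, which reaches into the promoter window and was therefore not counted as a body peak.

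**Figure D4:**
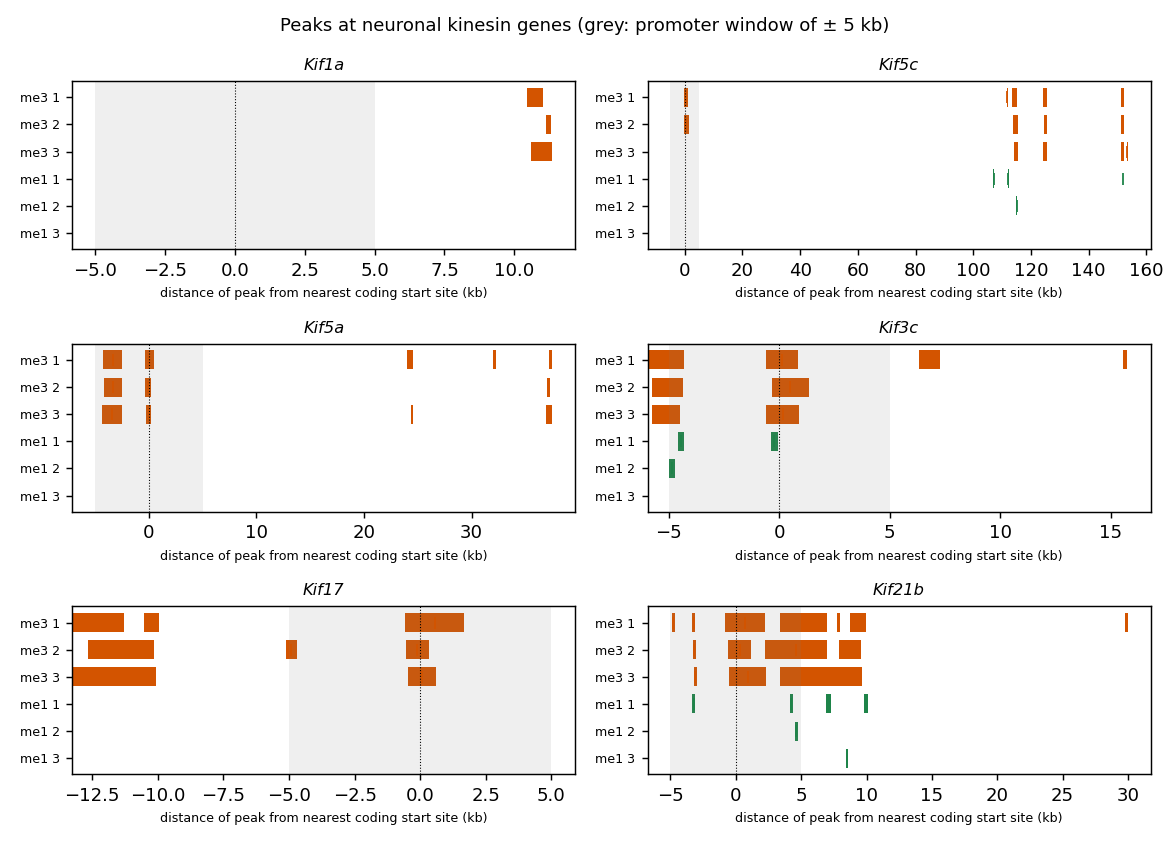
Peaks of each library at the 6 neuronal kinesin genes, by distance in kb from the nearest coding start site, with H3K4me3 (me3, orange) above H3K4me1 (me1, green) and the promoter window in grey. Kif1a has no peak in the grey window and 1 H3K4me3 region near 10.9 kb, and Kif5c has 3 H3K4me3 regions in all libraries more than 100 kb from its start.

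An H3K4me3 body peak in some library was found in 5 of 11 mitotic and 6 of 6 neuronal genes, against 33.2% of all genes, whose median length is shorter (17.4 kb, compared with 45.5 kb and 49.1 kb). In mitotic genes 2 regions were found in all 3 libraries. Of these, 1 lay over an exon of Kif20b, 28.1 kb downstream, with 5.45, 5.06 and 5.03-fold. The other, in Kif22, was exonic, had a TSS of Maz within 5 kb and covered the start of another Kif22 transcript of the full annotation in 3 libraries. Over all kinesins the most H3K4me3 body peaks per library were in Kif13b (mean 5.67), Kif3b (4.33) and Kif1bp (4), and the most H3K4me1 peaks in Kif13b (3.33), Kif3b (2.67) and Kif26b (2). Of 66 H3K4me3 body regions 24 were found in 3 libraries, and 20 of them were intronic. Of 40 H3K4me1 regions 1 was, in an intron of Kif3b, 7.18 kb downstream.

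**Figure D5:**
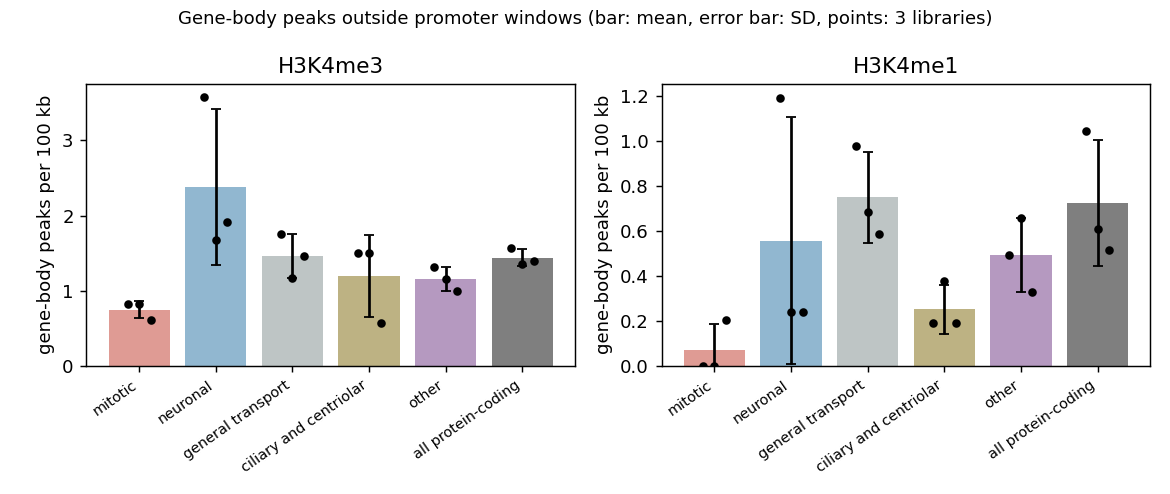
Gene-body peaks outside promoter windows per 100 kb of whole gene length, by class, for H3K4me3 (left) and H3K4me1 (right). Bars are means, error bars SDs and points the 3 libraries, with all protein-coding genes in black. The 3 neuronal H3K4me3 points (1.67 to 3.58) lie above the 3 mitotic points (0.611 to 0.815).

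The partners of these motors were compared by the same counts, against 56.1% of all genes for H3K4me3 and 6.17% for H3K4me1 in 3 libraries. Of 16 spindle and cytokinesis partners, such as Aurkb, Plk1 and Racgap1, 16 had promoter-proximal H3K4me3 in 3 libraries, with a median of 21.3% of the window covered, and 0 had H3K4me1 in 3. Of 12 cargo adaptors and light chains 12 did, Kif1bp included, and Klc1 and Trak1 also had H3K4me1 in 3. Of 9 cytoplasmic dynein subunits 7 did; Dync1i1, a neuronal intermediate chain, had no peak and Dynll2 had H3K4me3 in 2 libraries. Of 10 neuronal genes 4 did (Tubb3, Map2, Syn1 and Elavl3), and 5 had no H3K4me3 in any library. Tubb3, a neuronal tubulin, stood out with 33.5%, 37.6% and 32.8% covered and H3K4me1 in 3 libraries, while Map2 had 2.10%, 0.507% and 3.90%. These counts carry no test.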

How the data were processed

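Peaks of H3K4me3 and H3K4me1 in 6 Mint-ChIP libraries of GC B cells, 3 per mark, were analysed. The authors called peaks per library, in broad format for H3K4me3 and narrow format with a summit for H3K4me1. The labels list build mm10 and the tools BWA, Picard, HOMER and Genrich without roles. The columns follow the MACS2 layout; settings and control of the caller are not given in the sources used here. The protocol text names an H3K27ac antibody; marks were taken from the titles and antibody labels. Fold enrichment, as deposited, is a ratio of fragments to local background, given with −log10 p and −log10 q. The deposited score column was not used. The lowest −log10 q was 1.02 to 1.14 for H3K4me3 and 1.31 to 1.32 for H3K4me1. Depth of sequencing is unknown. Fragments at H3K4me1 summits were recovered by inverting the Poisson p-value (tolerance 0.0005), which gave whole numbers for 99.99% to 100% of peaks.

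From these lists, peaks were assigned to 41451 coding TSSs of 21864 genes (GENCODE M21 basic, GRCm38) when at least 1 bp lay within 5 kb, and coverage was the percentage of that window under peaks. Body peaks overlapped a gene outside the window and were counted per 100 kb of gene. Marks were compared per gene with a two-sided exact permutation test (Python 3.11.15, numpy 2.4.6, scipy 1.17.1). Classes were described by counts and by mean ± SD over libraries, beside all genes. Overlap code was tested on simulated data and recovered 200 of 200 genes. Same-numbered libraries of the 2 marks did not deviate together (r = 0.0624, 0.0267 and −0.00997 across 7671 genes, which are not independent) and were not paired. All mitotic and neuronal members are named. Of the others, those with H3K4me1 in 3 libraries, with no H3K4me3, with the 3 widest peaks and with the most body peaks are named, and in partner lists the exceptions. Members and lists were chosen with earlier results of these data known. Alternatives were another window, a stricter q, the 10000 best peaks, 1 TSS per gene, shared promoters left out, another overlap, other lists and each library left out.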

Additional observations from a re-analysis of the deposited data

How the results depend on the processing

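Of 76 alternatives run on 7 results, 44 left the value within its spread or, for counts, within 1.5 times, 23 moved it and 9 reversed it; the cause was not tested. The H3K4me3 share difference between mitotic and neuronal genes (22.2 points) was 51.5 with the 10000 best peaks, 2.53 with shared promoters left out, 7.07 with only peaks over the TSS and 44.4 with 3 examples per class. The H3K4me3 coverage difference (3.12 points) was 34.8 in a window of 1 kb, 5.76 at a −log10 q of at least 5, 8.47 with the 10000 best peaks, 9.34 without Kif21b, 18.1 with 3 examples, and turned to −0.469 with 1 TSS per gene and −0.960 with shared promoters left out. Of 39 kinesins, 32 had promoter-proximal H3K4me3 in 3 libraries, which became 17 at the stricter q, 12 with the best peaks and 21 over the TSS. The same settings gave 17 and 11 for the 32 genes with more H3K4me3 than H3K4me1 coverage.

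The H3K4me1 differences had no stable sign. The share difference (5.05 points) was −5.56 at the stricter q, −4.04 with the best peaks, −0.505 with 1 TSS per gene, −4.04 with shared promoters left out and 66.7 with 3 examples. It ranged from −6.06 to 15.2 when a library was left out, the negative value being without H3K4me1 replicate 3. The coverage difference (0.236 points) was 2.14 in a window of 1 kb, −0.0834 at the stricter q, −0.144 with 1 TSS per gene and 1.96 with 3 examples. The count of 3 genes became 0 at 1 kb, 0 at the stricter q, 1 with 1 TSS per gene, 0 over the TSS and 3 to 6 with a library left out, 6 being the value without H3K4me1 replicate 2 or 3.

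With libraries paired by number as a replicate block, H3K4me3 coverage was the higher in all 3 pairs at 32 kinesins, as without it, and the smallest p of the exact sign-flip test over 3 pairs is 0.25. The numbers are not known to pair the libraries. Read depth is unknown, and H3K4me1 summits of a few fragments limit what the absence of a peak shows.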
